A study of Mus musculus with 21 samples.

Results

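The genes described here are Myc and 35 genes of ribosome biogenesis, 36 in all, taken as a fixed list of symbols and looked up in the 3 tables of values per gene that the authors deposited. All 36 were found in each table: among 15945 genes for bone marrow eosinophils with granulocyte-macrophage progenitors (GMPs), among 16645 genes for bone marrow-derived eosinophils (BMDEs) and among 22274 genes for eosinophils at rest or given cytokines. For the last of these, 33 genes were matched by symbol, and Fbl, Nop10 and Heatr1, which are spelled there in capitals, were matched by identifier. All 36 also passed the filter on low counts in each table, so every member was tested in every comparison.

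The study measured poly(A) RNA of 21 libraries of cells from WT mice, in order to follow iron in the eosinophil, a granulocyte of allergic inflammation. Untreated bone marrow eosinophils (n = 3) were set against untreated GMPs (n = 3), the marrow progenitors of granulocytes and macrophages. Untreated resting eosinophils (n = 3) were set against eosinophils given cytokines of type 2 immunity, called T2 here (n = 3). The treatment labels of the T2 libraries share IL-4 and GM-CSF and give IL33, IL34 or IL35 as the third cytokine, a different one for each library. Whether these are different cytokines or a slip in numbering 1 name cannot be told from the labels, and the libraries were kept as 1 group. BMDEs are eosinophils grown from marrow cells in culture, with SCF and FLT3 ligand at 100 ng/mL each until day 4 and then with IL-5 at 10 ng/mL. They were left untreated (control, n = 2), given 5 µM of the iron chelator deferoxamine (DFO, n = 3) or given 10 µM of ferric ammonium citrate, an iron source (FAC, n = 4), from day 4 until RNA was taken on day 7. That culture protocol is in the labels of all samples, so how the cells of the other groups were isolated is not given. They name no separate animals or cultures either, and p-values then measure the spread between these libraries, which may be technical. Strain and age are not given in the labels.

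A ribosome is built in the nucleolus, where RNA polymerase I transcribes the rRNA precursor and small nucleolar ribonucleoproteins (snoRNPs) guide its chemical modification. Processing factors then cut and fold the precursor along separate paths for the small and the large subunit while ribosomal proteins are added. Myc is a transcription factor that pairs with Max, binds the E-box CACGTG and is known as an activator of many of these genes, and growing cells such as marrow progenitors make many ribosomes whereas mature granulocytes do not divide.

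Because Myc and Max bind CACGTG, the promoters of the members were searched for it. RefSeq promoter windows on GRCm38.p6, each of 300 bases from 250 before to 50 after a gene's annotated start, were at hand for 30 of the 36 members, in 33 windows. Those of Bop1, Fbl, Myc, Npm1, Rrp12 and Rrs1 were not used here. CACGTG, which reads the same on both strands, was in 6 of the 33 member windows (18.2%) and in 7.15% of all 32851 windows of that length. The 6 stretches of 30 bases that hold it are shown since the later results give these genes' levels. Each is written 5′ to 3′ on the strand of the gene, with CACGTG in capitals.
Nop2: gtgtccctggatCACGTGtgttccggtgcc
Pes1: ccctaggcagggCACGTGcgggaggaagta
Mybbp1a: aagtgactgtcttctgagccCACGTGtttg
Tsr1: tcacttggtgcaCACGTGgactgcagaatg
Nle1: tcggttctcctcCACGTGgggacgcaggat
Wdr43: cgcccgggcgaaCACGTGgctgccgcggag
The stretch of Nop2 lies on the + strand at chr6:125131811-125131840, and its motif begins 60 bases before the start. The other 5 motifs begin within the transcript, at base 3 of Pes1 (+ strand, chr11:3963965-3963994), 18 of Wdr43 (+ strand, chr17:71616220-71616249), 24 of Nle1 (- strand, chr11:82908355-82908384), 25 of Tsr1 (+ strand, chr11:74898092-74898121) and 41 of Mybbp1a (+ strand, chr11:72441347-72441376), counted from 1 at the annotated start. Of the other 24 members with a window, Bysl and Ddx21 are shown by the 60 bases before their starts, because they rose most steeply in T2 eosinophils within their roles.
Bysl: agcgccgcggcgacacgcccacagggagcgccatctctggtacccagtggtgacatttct
Ddx21: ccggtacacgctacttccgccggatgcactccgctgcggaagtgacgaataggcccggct
They lie on the - strand at chr17:47611493-47611552 and chr10:62602299-62602358. A match is a stretch of letters and not a measured binding site.

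Libraries of GMPs and bone marrow eosinophils held 25857382 to 28992668 counts, those of BMDEs 16809789 to 17991878 and those of resting and T2 eosinophils 16073573 to 18995878. A pair of libraries stood apart. On the first principal component of its table bone marrow eosinophil library 3 lay at -182, against -43.3 and -34.0 for the other eosinophil libraries. FAC library 6 lay at 52.7, against 17.98 to 27.3 for the other FAC libraries. Calls of members that change when either is left out are given in both forms. The labelled cell types were checked on a list of eosinophil markers, whose summed level was 21747 to 38475 CPM (counts scaled to a common library size with TMM factors, the unit of every level unless FPKM is named) in bone marrow eosinophils and 514 to 759 CPM in GMPs. It was 15546 to 15822 CPM in resting and 19656 to 20423 CPM in T2 eosinophils, and 21949 to 73655 CPM in BMDEs. A list of 14 neutrophil markers summed to 38764, 82451 and 206881 CPM in bone marrow eosinophil libraries 1, 2 and 3, and to at most 135 CPM in GMPs. A list of 18 progenitor markers summed to 65950, 51651 and 42384 CPM in the same eosinophil libraries, and to 53834 to 64015 CPM in GMPs. In bulk RNA, fewer cells of a type and less RNA per cell cannot be told apart.

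**Figure D1:**
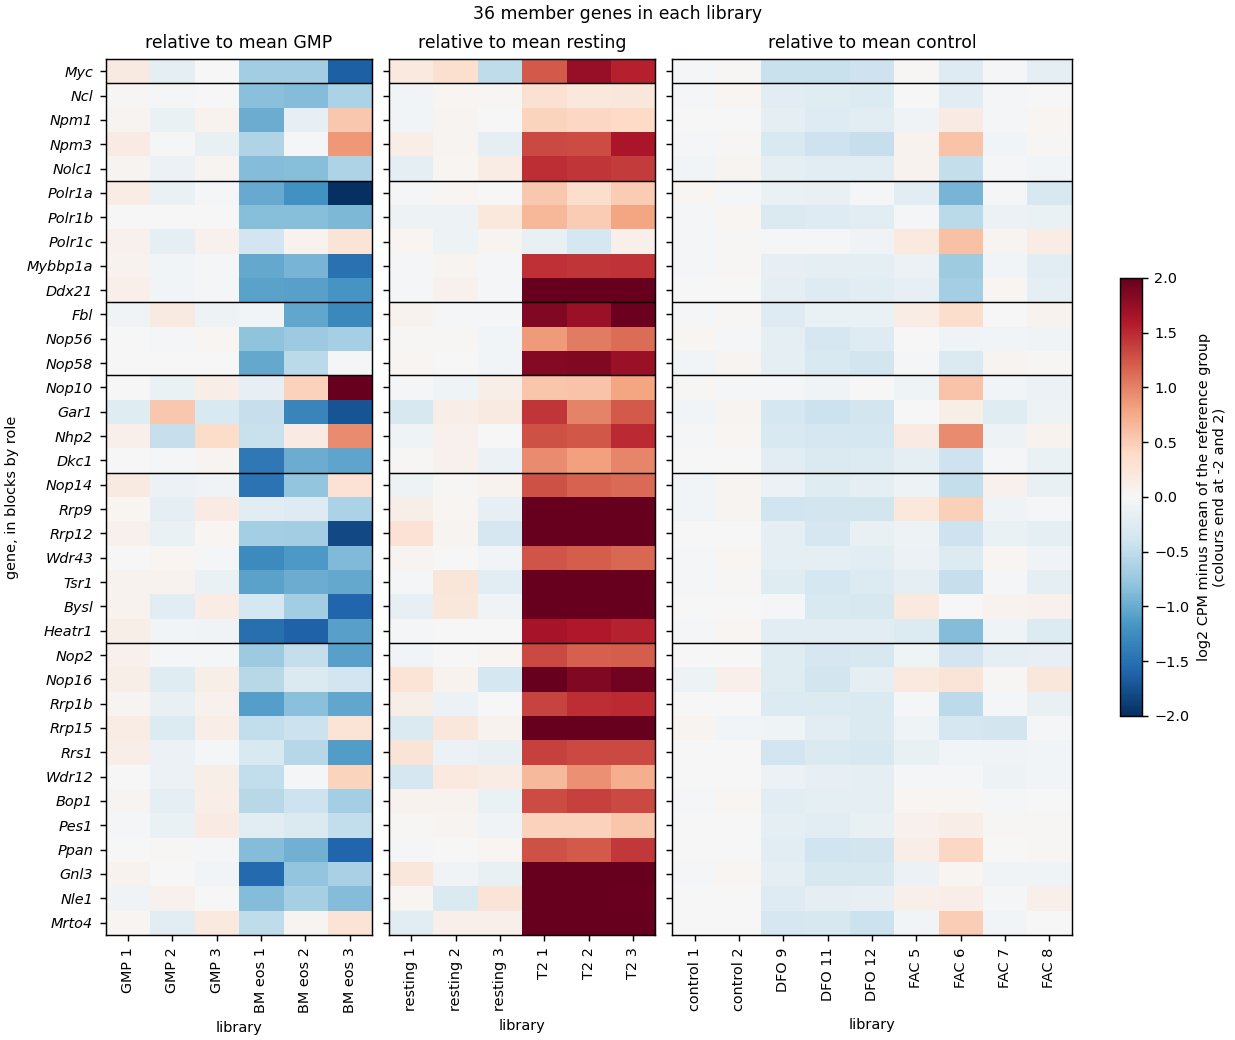
Each row is 1 of the 36 members, in blocks by role, and each column 1 library. Colour gives log2 CPM minus the mean of GMP, resting or control libraries in the same table, and stops at -2 and 2. The T2 columns are above resting eosinophils for every member but Polr1c, the 3 DFO columns are faintly below control, and FAC library 6 differs in both directions from FAC libraries 5, 7 and 8.

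Levels can be compared between genes per transcript length, for which the authors' FPKM values were used. Npm1, which encodes nucleophosmin, ranked first among the 36 members in 20 of the 21 libraries, with mean values from 130 FPKM in resting eosinophils to 542 FPKM in GMPs. Myc changed rank between the groups. It ranked 2 in each GMP library, at a mean of 391 FPKM, and 2 to 5 in bone marrow eosinophils, at 156 FPKM. In BMDEs it ranked 10 to 13, at 52.3 FPKM in control, 39.8 FPKM in DFO and 45.8 FPKM in FAC libraries. In resting eosinophils it ranked 33 to 36, at 1.11 FPKM, and in T2 eosinophils 35, at 2.45 FPKM. The tables were made separately, so levels set across them carry no test. Nle1, a factor of the large subunit, ranked 30 to 36 in every library. Npm3 was last in each GMP library, at 7.92 FPKM, and ranked 31 to 36 in bone marrow eosinophils, at 6.11 FPKM, but 5 or 6 in BMDEs, at 63.8 to 85.6 FPKM. The ranks of Npm3 and Myc thus differed between the tables.

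**Figure D2:**
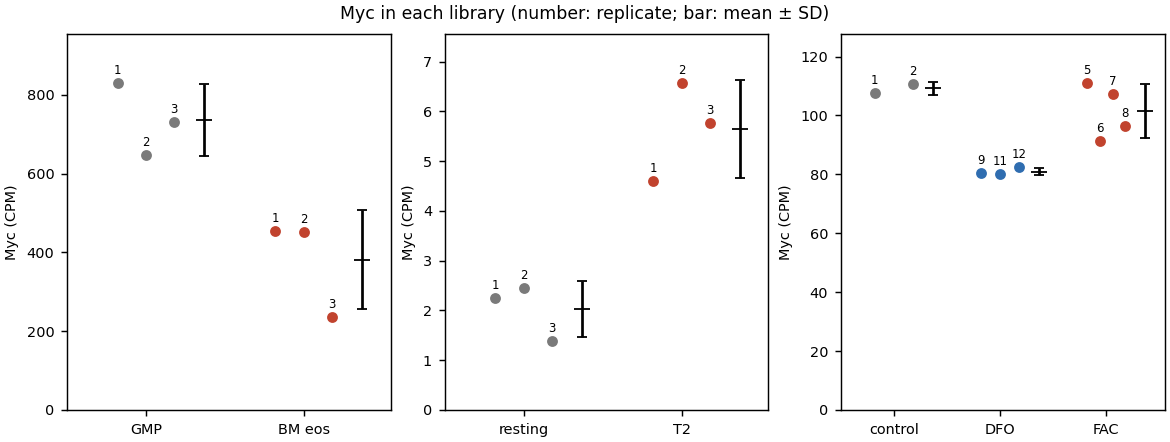
Each point is the level of Myc in 1 library in CPM, with its replicate number, and the bars give the mean ± SD of the group; each table has its own vertical axis, which starts at 0. Myc is at 647 to 829 CPM in GMPs, 1.39 to 6.57 CPM in resting and T2 eosinophils and 80.0 to 110.9 CPM in BMDEs, and the 3 DFO libraries lie below all control and FAC libraries.

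The first comparison sets eosinophils stimulated with type 2 cytokines against resting ones, as a model of the allergic state. Ribosome biogenesis genes rose together, led by Bysl (8.83-fold) and Rrp12 (7.68-fold), factors of the small subunit, and Rrp15 (6.38-fold), a factor of the large subunit, in T2 against resting libraries. Of the 36 members 35 were called higher and 0 lower, where 38.2% of the 11345 genes tested were called higher and 37.9% lower (edgeR quasi-likelihood F test, two-sided, Benjamini-Hochberg adjusted p under 0.05 over all genes tested, the rule for every call here). Polr1c was the 1 member not called. Without adjustment the same 35 to 0 passed p under 0.05, where 8796 of all 11345 genes passed in either direction. DESeq2 called 35 and 0, and over all genes 4132 higher and 4047 lower. The median log2 fold change of the members was 1.38, against -0.011 over all genes tested, and their summed level was 1070 to 1125 CPM in resting and 2168 to 2232 CPM in T2 libraries.

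Myc itself was rare in both groups. It stood at 2.25, 2.45 and 1.39 CPM in resting libraries 1 to 3, from 24 to 48 counts each, and at 4.60, 6.57 and 5.76 CPM in T2 libraries 1 to 3, from 75 to 108 counts each. The groups did not overlap (log2 fold change 1.47, SE 0.23, adjusted p = 2.7e-05). Among the nucleolar chaperones and scaffolds, all 4 rose, from 0.25 for Ncl, the nucleolin that binds pre-rRNA, and 0.42 for Npm1 to 1.42 for Npm3 and 1.42 for Nolc1. Nolc1, a scaffold for snoRNPs, was at 19.04, 22.5 and 24.2 CPM in resting and 60.4, 58.5 and 57.4 CPM in T2 libraries (log2 fold change 1.42, SE 0.075, adjusted p = 6.07e-11). Npm3, a chaperone of the nucleophosmin family, went from 4.38, 4.14 and 3.53 CPM to 9.94, 9.91 and 12.4 CPM (log2 fold change 1.42, SE 0.14, adjusted p = 2.11e-07). Neither gene's groups overlapped, and the abundant pair Ncl and Npm1 had the smallest rises among all called members.

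Of the 5 genes of rDNA transcription 4 rose. Ddx21, an RNA helicase of the nucleolus, was at 49.3, 53.7 and 49.7 CPM in resting and at 236, 229 and 213 CPM in T2 libraries (log2 fold change 2.15, SE 0.057, adjusted p = 9.95e-15). Mybbp1a, a Myb-binding protein of the nucleolus, was at 57.2, 60.7 and 57.3 CPM and 161, 157 and 159 CPM (log2 fold change 1.44, SE 0.05, adjusted p = 2.82e-13). The subunits of RNA polymerase I itself moved less: 0.47 for Polr1a and 0.66 for Polr1b, the 2 largest, were called. Polr1c, a subunit shared with RNA polymerase III, was at 8.20, 7.46 and 8.27 CPM and 7.18, 6.26 and 8.50 CPM, overlapping groups (log2 fold change -0.12, SE 0.13, adjusted p = 0.431).

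All 3 core proteins of box C/D snoRNPs, which guide 2′-O-methylation, rose. Fbl, the methyltransferase fibrillarin, was at 24.2, 22.8 and 22.4 CPM in resting and 83.3, 76.1 and 89.7 CPM in T2 libraries (log2 fold change 1.84, SE 0.07, adjusted p = 8.33e-13). Nop58 was at 21.7, 21.3 and 20.5 CPM and 75.6, 76.7 and 69.8 CPM (log2 fold change 1.80, SE 0.063, adjusted p = 2.96e-13), and its partner Nop56 rose by 1.00 on the log2 scale. The 4 core proteins of box H/ACA snoRNPs, which guide pseudouridylation, rose by 0.64 (Nop10) to 1.34 (Nhp2). Nhp2 was at 13.1, 14.9 and 13.9 CPM and 33.7, 33.1 and 39.4 CPM (log2 fold change 1.34, SE 0.086, adjusted p = 6.79e-10). Gar1 was at 2.70, 3.68 and 3.82 CPM and 9.08, 6.69 and 7.83 CPM (log2 fold change 1.21, SE 0.18, adjusted p = 1.26e-05). Dkc1, the pseudouridine synthase dyskerin, rose by 0.91 (SE 0.094). In none of these 7 genes did the groups overlap, where 38.2% of all genes tested were called higher and 37.9% lower. The share of all genes without overlap was not counted in this comparison.

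The 7 small subunit factors had a median log2 fold change of 2.15, from 1.20 for Nop14 to 3.14 for Bysl. Bysl, which acts in a late step of the small subunit precursor, was at 3.48, 4.55 and 3.70 CPM in resting and 35.6, 35.1 and 33.5 CPM in T2 libraries (log2 fold change 3.14, SE 0.10, adjusted p = 9.93e-14). Rrp12, a factor of subunit maturation and export, was at 5.78, 4.90 and 3.76 CPM and 36.1, 38.6 and 36.7 CPM (log2 fold change 2.94, SE 0.11, adjusted p = 6.45e-13). The lowest T2 library was several times the highest resting library for both. Tsr1 rose by 2.49, Rrp9 of the U3 snoRNP by 2.15, Heatr1 by 1.60 and Wdr43 by 1.20. Bysl shares 361 of its 3854 exon bases with Ccnd3 and Tsr1 shares 1240 of 3837 with Srr, each on the opposite strand. Whether counting used the strand is not given in the sources used here, so their reads cannot be told apart there.

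The 12 large subunit factors had a median of 1.38. Rrp15 was at 1.97, 2.81 and 2.54 CPM in resting and 16.01, 15.6 and 15.4 CPM in T2 libraries (log2 fold change 2.67, SE 0.14, adjusted p = 3.48e-11). Gnl3, the GTPase nucleostemin, was at 7.02, 5.67 and 5.38 CPM and 25.1, 27.7 and 25.8 CPM (log2 fold change 2.12, SE 0.10, adjusted p = 2.17e-11). The parts of the Pes1, Bop1 and Wdr12 complex, which is needed for the large subunit's rRNA, rose unequally, by 0.49, 1.33 and 0.74. The rest rose by 1.24 (the rRNA methyltransferase Nop2) to 2.09 (Mrto4), with Ppan, Rrs1, Rrp1b, Nop16 and Nle1 between. Mrto4 has 2 named pseudogenes and Npm3 has 1, which may share reads with them. The 6 genes with CACGTG in the promoter window spanned 0.49 (Pes1) to 2.49 (Tsr1) with a median of 1.34, and the 24 with a window and without it spanned -0.12 (Polr1c) to 3.14 (Bysl) with a median of 1.38.

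Genes of the same pathway outside the members were counted from lists, where 38.2% of all genes tested were called higher and 37.9% lower. Higher in T2 eosinophils were 46 of 52 other small subunit factors (1 lower), led by Pno1 (2.76) and Utp20 (2.41), and 54 of 59 other large subunit factors (3 lower), led by Mdn1 (2.48) and Rpp40 (2.06). Of 11 other snoRNP and assembly factors 9 were higher and 1 lower, with Znhit3 at 1.82 and Ruvbl2 at 1.22. Of 18 exosome and rRNA trimming genes 12 were higher and 2 lower, with Eri1 at 1.75 and Mphosph6 at 1.46. Other RNA polymerase I machinery was less uniform, with 11 of 19 higher and 3 lower, Polr2h at 1.96 and Top1 at 1.29 in front. The cytosolic ribosomal proteins moved the other way: 77 of 82 were lower and 3 higher, with a median of -0.55. Their summed level was 20942 to 21016 CPM in resting and 13570 to 14921 CPM in T2 libraries. Many ribosomal protein genes have processed pseudogenes, so single values of that family are uncertain.

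Among Myc's partners and antagonists 5 of 12 were higher and 6 lower in T2 eosinophils. Mxd4, which competes with Myc for Max, fell by 3.03 on the log2 scale, and Pim1, a kinase induced by cytokines, rose by 1.89. Of 43 genes known as Myc targets outside ribosome biogenesis 34 were higher and 3 lower, with the cyclin Ccnd2 (2.82) and the cap-binding factor Eif4e (2.43) in front. Of 30 cell cycle genes 0 were higher and 10 lower, with 0 higher also at an unadjusted p under 0.05 and by DESeq2, and their summed level was 283 to 286 CPM in resting and 226 to 236 CPM in T2 libraries. Neutrophil markers summed to 2522 to 2749 CPM in resting and 1403 to 1440 CPM in T2 libraries. Mast cell and basophil markers summed to 99.1 to 108.5 CPM and 482 to 530.0 CPM, with 3 of 8 higher and 4 lower and Tpsb2 at 0 in both groups. Their part in the results was not tested.

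**Figure D3:**
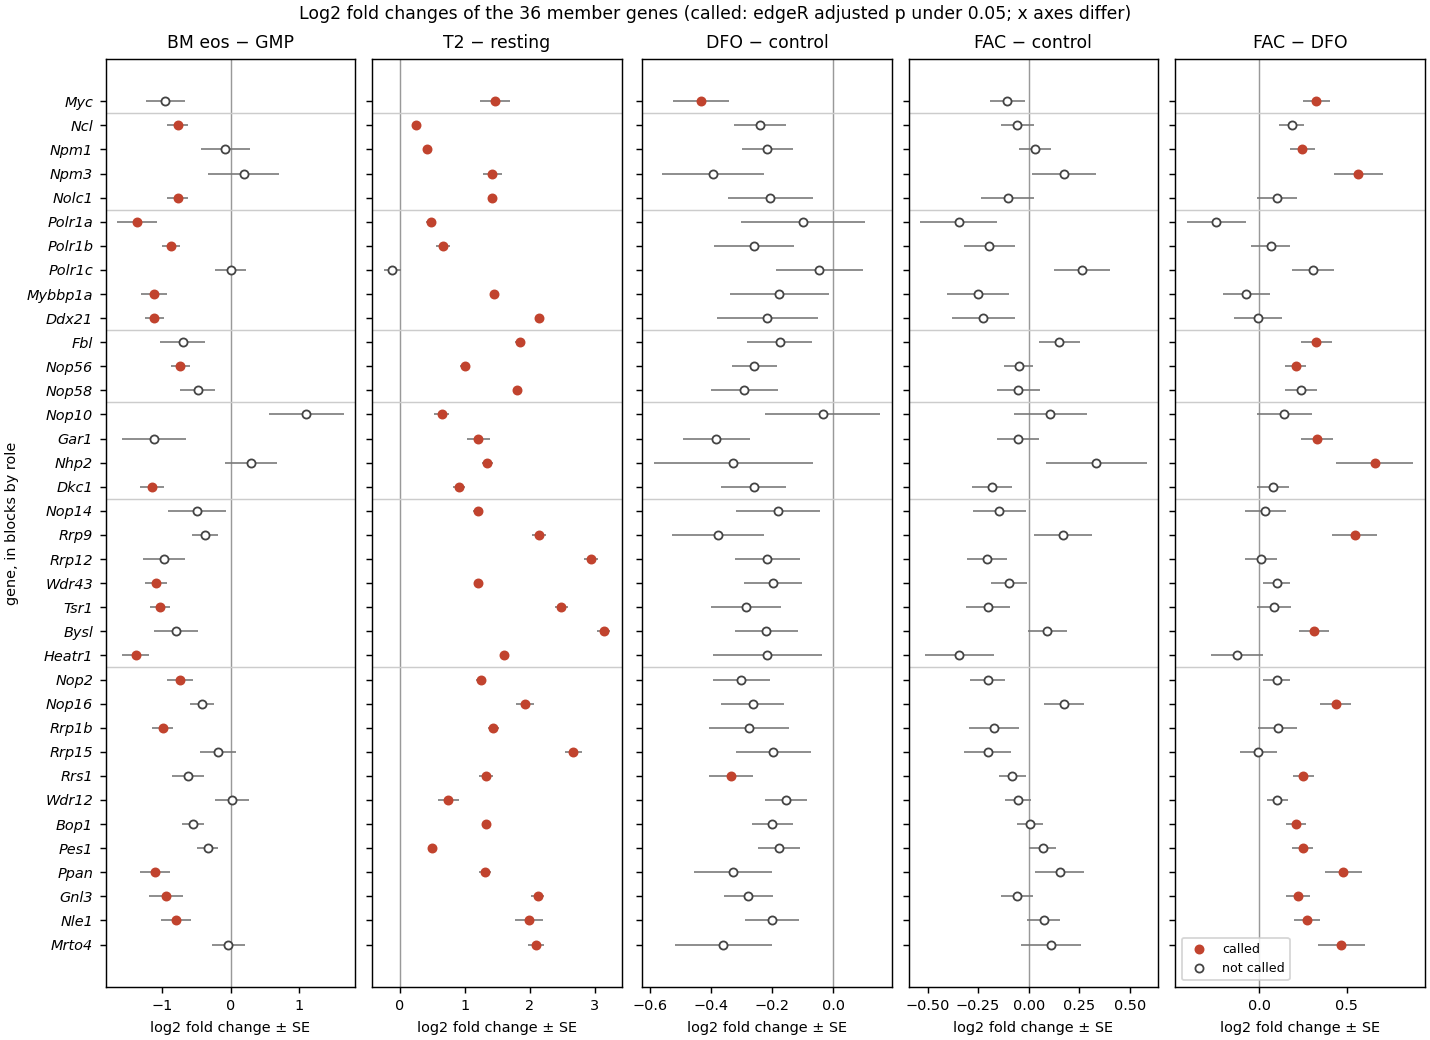
Each row is 1 member, in blocks by role, and each panel 1 comparison with its own horizontal axis; points are log2 fold changes, bars their standard errors, and filled points passed the adjusted p of 0.05. The T2 panel has 35 filled points, the bone marrow eosinophil panel 16 on the lower side, the DFO panel 2 with all 36 points below 0, the FAC against control panel 0 and the FAC against DFO panel 17 on the higher side.

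The second comparison sets the libraries labelled bone marrow eosinophils, which also held the neutrophil and progenitor markers given above, against GMPs. Members that differed were lower in eosinophils, led by Heatr1 (-1.39), a factor of small subunit processing, and Polr1a (-1.37), the catalytic subunit of RNA polymerase I. Of the 36 members 16 were called lower and 0 higher, where 6.78% of the 12214 genes tested were called lower and 13% higher. At an unadjusted p under 0.05 there were 23 lower and 0 higher, where 4405 of all 12214 genes passed in either direction. DESeq2 called 19 and 0, and over all genes 1549 lower and 2318 higher. The median was -0.76, against 0.0075 over all genes tested, and the summed level was 3896 to 4845 CPM in eosinophils and 6476 to 7116 CPM in GMPs. In 26 of the 36 every eosinophil library lay below every GMP library, as did 24.7% of all genes tested. Leaving out GMP library 1, 2 or 3 left 5, 8 and 8 called, leaving out eosinophil library 2 left 10 and leaving out eosinophil library 3 gave 22. Calls over all genes tested moved as well, from 828 lower with all libraries to 125, 176 and 220 without GMP library 1, 2 or 3. They were 430 without eosinophil library 2 and 2078 without eosinophil library 3.

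Myc was at 829, 647 and 731 CPM in GMP libraries 1 to 3 and at 454, 452 and 236 CPM in eosinophil libraries 1 to 3. The groups did not overlap, yet the difference was not called (log2 fold change -0.95, SE 0.28, adjusted p = 0.0563), and without eosinophil library 3, the lowest, it was called at -0.70 (SE 0.16, adjusted p = 0.0103). Of the nucleolar chaperones and scaffolds, Ncl and Nolc1 fell. Nolc1 was at 243, 216 and 243 CPM in GMPs and 128, 129 and 153 CPM in eosinophils (log2 fold change -0.77, SE 0.15, adjusted p = 0.0157). Ncl was at 882, 852 and 869 CPM and 489, 477 and 559 CPM (log2 fold change -0.77, SE 0.15, adjusted p = 0.015). Npm1 (-0.075) and Npm3 (0.19) were not called, and Npm1 ranged from 276 CPM in eosinophil library 1 to 803 CPM in library 3.

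Of the genes of rDNA transcription Polr1a, Polr1b, Mybbp1a and Ddx21 fell. Polr1a was at 121, 100.0 and 108 CPM in GMPs and 54.4, 47.3 and 25.8 CPM in eosinophils (log2 fold change -1.37, SE 0.29, adjusted p = 0.0199). Mybbp1a was at 523, 481 and 493 CPM and 246, 263 and 178 CPM (log2 fold change -1.12, SE 0.19, adjusted p = 0.00937). Ddx21 and Polr1b fell (-1.11 and -0.87) with little spread within the groups, and Polr1c was at 0.0021 (SE 0.23). Of the snoRNP cores, 1 of each kind was called. Nop56 was at 372, 369 and 386 CPM in GMPs and 216, 226 and 237 CPM in eosinophils (log2 fold change -0.73, SE 0.14, adjusted p = 0.0136). Dkc1 was at 314, 309 and 328 CPM and 117, 159 and 153 CPM (log2 fold change -1.15, SE 0.17, adjusted p = 0.0057). Fbl (-0.70), Nop58 (-0.48) and Gar1 (-1.12) were not called, nor were Nhp2 (0.30) and Nop10 (1.11), the latter with an SE of 0.54. Without eosinophil library 3 Nop58 was called lower, at -0.77 (adjusted p = 0.00973), and Polr1c and Nhp2 turned to -0.15 and -0.16, uncalled.

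All 7 small subunit factors had negative fold changes and 3 passed. Heatr1 was at 219, 193 and 193 CPM in GMPs and 70.5, 65.4 and 95.3 CPM in eosinophils (log2 fold change -1.39, SE 0.19, adjusted p = 0.00442). Wdr43, which acts with it early on the precursor, was at 265, 274 and 263 CPM and 110.4, 121 and 145 CPM (log2 fold change -1.09, SE 0.16, adjusted p = 0.00539). Tsr1 fell by 1.03 on the log2 scale (SE 0.15), and Rrp12 (-0.97), Bysl (-0.80), Nop14 (-0.48) and Rrp9 (-0.37) were not called. Without eosinophil library 3 Nop14 was called at -1.11 (adjusted p = 0.00729), Rrp12 at -0.69 (adjusted p = 0.00689) and Bysl at -0.53 (adjusted p = 0.0498). Of the 12 large subunit factors 5 passed. Ppan was at 135, 136 and 132 CPM in GMPs and 73.7, 69.3 and 44.9 CPM in eosinophils (log2 fold change -1.10, SE 0.22, adjusted p = 0.0153). Rrp1b was at 144, 125 and 147 CPM and 64.2, 77.6 and 67.7 CPM (log2 fold change -0.99, SE 0.16, adjusted p = 0.00733). Gnl3, Nle1 and Nop2 also fell (-0.95, -0.80 and -0.74), and the other 7, Bop1, Pes1, Wdr12, Rrs1, Nop16, Rrp15 and Mrto4, lay between -0.63 and 0.025 without passing. Without eosinophil library 3 Bop1 was called at -0.50 (adjusted p = 0.0377) and Wdr12 turned to -0.25, uncalled.

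In the other pathway lists 11 of 52 small subunit factors were lower and 1 higher, with Utp20 (-2.16) and Nat10 (-1.44) in front, and 9 of 59 large subunit factors were lower and 1 higher, with Urb1 (-1.14) and Ftsj3 (-1.06). Lower too were 2 of 11 snoRNP and assembly factors (Nufip1 at -1.11, Tgs1 at -1.03), 1 of 19 exosome genes (Dis3 at -1.57) and 1 of 19 other genes of RNA polymerase I machinery (Rrn3 at -0.69). Over all genes tested 6.78% were called lower and 13% higher, so the exosome and polymerase counts do not exceed the share of all genes. Of 44 Myc targets outside the pathway 14 were lower and 0 higher (1 higher at an unadjusted p under 0.05 and by DESeq2), with Fasn at -1.53 and Hspd1 at -1.05. Mxd1, an antagonist of Myc induced in maturing myeloid cells, rose by 3.49, and Mycl fell by 4.93 from a mean of 1.35 CPM in GMPs. None of 83 ribosomal proteins was called by edgeR, while 44 were higher at an unadjusted p under 0.05 and 34 by DESeq2. Their median of 1.37 became 0.45, with 6 called higher, without eosinophil library 3, in which they summed to 86089 CPM. Without eosinophil library 1 there were 64 higher, and with offsets for length and GC content 0 higher and 10 lower. Over all genes tested 2545 of 12648 were higher without eosinophil library 3 and 1977 of 12467 without eosinophil library 1. With the offsets 1708 of all 12214 were higher and 1197 lower. Without eosinophil library 3 the small subunit list had 25 lower, the large subunit list 23 and the Myc targets 24. Without GMP library 1 these counts were 1, 0 and 2. Over all genes tested 2078 of 12648 were lower without eosinophil library 3 and 125 of 12636 without GMP library 1. The range of neutrophil markers across the eosinophil libraries, given above, moves with library 3, and its part in the members' values was not tested.

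The next comparisons ask how iron bears on eosinophils forming in culture. In DFO against control Myc (-0.43) and Rrs1 (-0.33) fell, and the other 34 members did not pass, a share of calls near that of all genes. Of the 36 members 2 were called lower and 0 higher, where 5.12% of the 12607 genes tested were called lower and 6.46% higher. At an unadjusted p under 0.05 there were 19 lower and 0 higher, where 3280 of all 12607 genes passed in either direction. DESeq2 called 8 and 0, and over all genes 866 lower and 1083 higher. The median was -0.23, against 0.0037 over all genes tested, and all 36 fold changes were negative, between -0.43 for Myc and -0.036 for Nop10. In 33 of the 36 every DFO library lay below both control libraries, as did 32.9% of all genes tested. The exceptions were Nop10, Polr1a and Polr1c. Summed levels were 3687 and 3790 CPM in control and 3132 to 3242 CPM in DFO libraries.

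The count depends on the FAC libraries, which share the spread of the fit. Without FAC library 6, or with the fit on DFO and control libraries alone, 31 members were called lower with a median of -0.24 or -0.23. Calls over all genes tested rose too, from 646 of 12607 lower to 2531 of 12560 and 3025 of 12469 in these fits. Without FAC library 7 there were 4 members called, and 733 of 12590 genes tested were lower. Without DFO library 9, 11 or 12 0 members were called. Lower calls over all genes then fell as well, to 300 of 12554, 239 of 12546 and 253 of 12557. Leaving out control library 1 or 2 leaves only 1 control library, and Myc was then at -0.46 and -0.41. Myc was at 108 and 111 CPM in control and 80.4, 80.0 and 82.4 CPM in DFO libraries (log2 fold change -0.43, SE 0.092, adjusted p = 0.0176). Rrs1, which brings the 5S rRNA particle to the large subunit, was at 47.0 and 46.9 CPM and 35.98, 38.3 and 37.5 CPM (log2 fold change -0.33, SE 0.071, adjusted p = 0.0176). Both genes had DFO libraries within a few CPM of each other and clear of the controls.

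In each other role the member with the smallest p was also lower in DFO without passing. Ncl was at 668 and 704 CPM in control and 592, 582 and 567 CPM in DFO libraries (log2 fold change -0.24, SE 0.085, adjusted p = 0.105). Polr1b was at 37.7 and 40.1 CPM and 31.8, 32.4 and 33.1 CPM (log2 fold change -0.26, SE 0.13, adjusted p = 0.252). Nop56 was at 128 and 122 CPM and 109.9, 99.2 and 105 CPM (log2 fold change -0.26, SE 0.074, adjusted p = 0.0528). None of these 3 had overlapping groups. Gar1 was at 27.0 and 29.1 CPM and 22.0, 20.8 and 21.8 CPM (log2 fold change -0.38, SE 0.11, adjusted p = 0.054). Rrp9 was at 27.7 and 29.6 CPM and 21.8, 22.1 and 22.2 CPM (log2 fold change -0.38, SE 0.15, adjusted p = 0.148). The groups were apart there as well. Without FAC library 6, Ncl, Polr1b, Nop56, Gar1 and Rrp9 were called lower at -0.25, -0.26, -0.26, -0.39 and -0.38, and the 5 members not called were Nop10, Polr1a, Polr1c, Nle1 and Rrp15.

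Iron loading with FAC, set against the same control libraries, called 0 of the 36 members by edgeR in either direction, where 4.28% of the 12607 genes tested were called lower and 1.76% higher. At an unadjusted p under 0.05 there was 1 lower, DESeq2 called 0, and without FAC library 6 there was 1 call, Heatr1, which went from -0.34 to -0.20 (SE 0.060, adjusted p = 0.0299). Fold changes were positive in 14 members and negative in 22, from -0.35 for Polr1a to 0.33 for Nhp2, with a median of -0.055. Myc was at 108 and 111 CPM in control and 111, 91.4, 107 and 96.5 CPM in FAC libraries 5 to 8, and the groups overlapped (log2 fold change -0.11, SE 0.087, adjusted p = 0.467).

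The members with the smallest p in the other roles were these. Nop2, with the E-box shown above, was at 77.3 and 77.8 CPM in control and 73.1, 59.3, 68.0 and 69.1 CPM in FAC libraries (log2 fold change -0.20, SE 0.088, adjusted p = 0.211). Rrp12 was at 46.2 and 45.4 CPM and 42.8, 34.2, 41.7 and 39.9 CPM (log2 fold change -0.21, SE 0.10, adjusted p = 0.252). Dkc1 was at 86.8 and 86.6 CPM and 76.9, 64.8, 85.3 and 78.7 CPM (log2 fold change -0.18, SE 0.10, adjusted p = 0.304). These 3, picked for their small p and not called, lay below control in all FAC libraries. The share of all genes that did so was not counted. Polr1c was at 28.3 and 29.5 CPM and 33.1, 43.5, 30.1 and 32.2 CPM (log2 fold change 0.26, SE 0.14, adjusted p = 0.278). Fbl was at 105 and 107 CPM and 118, 135, 105 and 112 CPM (log2 fold change 0.15, SE 0.10, adjusted p = 0.383). Npm3 was at 46.6 and 48.0 CPM and 49.9, 69.9, 45.3 and 48.2 CPM (log2 fold change 0.17, SE 0.16, adjusted p = 0.508). FAC library 6 was the highest of the FAC libraries for the last 3 genes, and in Npm3 and Fbl the groups overlapped.

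FAC library 6 differed from the other FAC libraries along transcript length. Of 15 members whose longest coding transcript is under 2000 bases 13 were above the mean of FAC libraries 5, 7 and 8 in library 6, with a median difference of 0.28 (log2). Of the 21 longer members 17 were below it, with a median of -0.31. The extremes were Nhp2 at 0.91 and Polr1a at -0.73. Across the 36 members Spearman's rho between length and that difference was -0.84, a description of 1 library over genes that are not independent. The short ribosomal protein transcripts summed to 71931 CPM in that library, the highest of the 4. The part of length in the members' values was not tested.

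**Figure D4:**
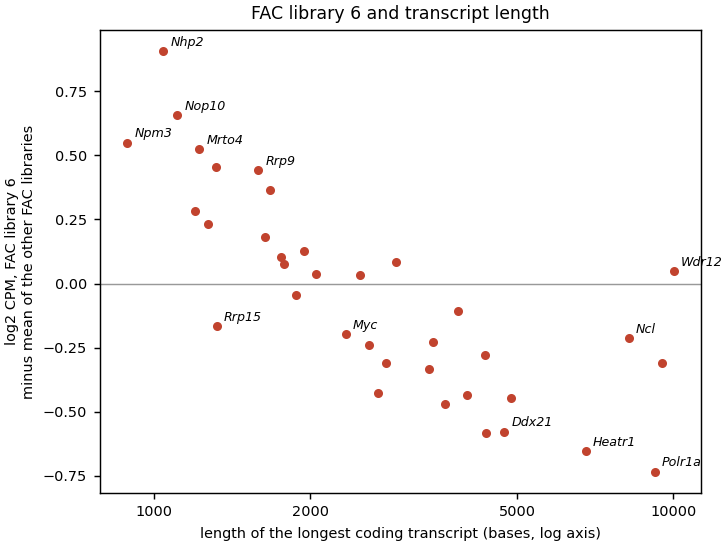
Each point is 1 of the 36 members. The horizontal axis is the length of its longest coding transcript in bases (log axis) and the vertical axis is log2 CPM in FAC library 6 minus the mean of the other 3 FAC libraries. Short transcripts such as Nhp2 (0.91) lie above 0 and long ones such as Polr1a (-0.73) below.

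The last comparison sets iron loading directly against chelation, and it reuses the FAC and DFO libraries of the 2 comparisons before it. Myc and 16 ribosome biogenesis genes were higher in FAC than in DFO cultures, by at most 1.58-fold for Nhp2. Without FAC library 6 Nhp2 was 1.31-fold higher and Rrp9, at 1.36-fold, was the highest of the called members. Of the 36 members 17 were called higher and 0 lower, where 23.5% of the 12607 genes tested were called higher and 24.8% lower. At an unadjusted p under 0.05 there were 20 higher and 0 lower, where 7052 of all 12607 genes passed in either direction. DESeq2 called 20 and 0, and over all genes 3266 higher and 3121 lower. The median was 0.21, against -0.013 over all genes tested, and in 19 of the 36 every FAC library lay above every DFO library, as did 26.8% of all genes tested. Without FAC library 6 the 17 kept their calls and 28 members were called in all, while calls over all genes rose from 2959 of 12607 higher to 4003 of 12560. Without DFO library 11 or 12 the count of members was 10 and 9, and 1929 of 12546 and 2013 of 12557 genes tested were higher. Corrected for length and GC content by offsets, 14 were called, of which 7 were among the 17, and 3432 of 12607 genes tested were higher.

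Myc was at 80.4, 80.0 and 82.4 CPM in DFO libraries 9, 11 and 12 and at 111, 91.4, 107 and 96.5 CPM in FAC libraries 5 to 8, groups that did not overlap (log2 fold change 0.33, SE 0.078, adjusted p = 0.00784). With the length and GC offsets Myc was at 0.21 (adjusted p = 0.0778) and not called. Among the chaperones, Npm3 was at 38.2, 35.5 and 34.3 CPM in DFO and 49.9, 69.9, 45.3 and 48.2 CPM in FAC libraries (log2 fold change 0.57, SE 0.14, adjusted p = 0.00957). Npm1 was at 507, 478 and 492 CPM and 548, 642, 561 and 588 CPM (log2 fold change 0.25, SE 0.07, adjusted p = 0.0171). FAC library 6 was the highest for both, and the other FAC libraries were above all DFO libraries too. Ncl (0.18) and Nolc1 (0.10) were not called, but without FAC library 6 both were, at 0.25 (adjusted p = 0.000142) and 0.22 (adjusted p = 0.00154).

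With all libraries no gene of rDNA transcription passed in either direction by edgeR. The smallest p was that of Polr1c, at 28.4, 28.0 and 27.6 CPM in DFO and 33.1, 43.5, 30.1 and 32.2 CPM in FAC libraries (log2 fold change 0.31, SE 0.12, adjusted p = 0.0575). Polr1a (-0.25), Mybbp1a (-0.074) and Ddx21 (-0.0085) were negative, and for each the level in FAC library 6 was the lowest of the 9 BMDE libraries. Left without FAC library 6, the fit called Polr1c (0.20, adjusted p = 0.0114), Polr1b (0.18, adjusted p = 0.0152) and Ddx21 (0.13, adjusted p = 0.0471) higher, and Mybbp1a turned to 0.066, uncalled. In the snoRNP cores Fbl was at 88.6, 96.0 and 96.3 CPM in DFO and 118, 135, 105 and 112 CPM in FAC libraries (log2 fold change 0.33, SE 0.089, adjusted p = 0.0146). Nop56 was at 109.9, 99.2 and 105 CPM and 126, 118, 119.9 and 119 CPM (log2 fold change 0.21, SE 0.062, adjusted p = 0.0216). Both groups were apart, with FAC above DFO. Nhp2 was at 43.4, 42.7 and 42.3 CPM and 60.3, 104, 50.2 and 56.2 CPM (log2 fold change 0.66, SE 0.22, adjusted p = 0.0341), and Gar1 was at 22.0, 20.8 and 21.8 CPM and 28.3, 30.4, 23.7 and 26.0 CPM (log2 fold change 0.33, SE 0.093, adjusted p = 0.0167). For Nhp2, FAC library 6 stood far above the other FAC libraries (log2 fold change 0.39 without it), and the call was lost when any single control or DFO library was left out. Nop58 (0.24) and Dkc1 (0.079) were not called, but without FAC library 6 they were, at 0.33 and 0.16 (adjusted p = 0.000104 and 0.0106).

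Of the small subunit factors Rrp9 and Bysl rose. Rrp9 was at 21.8, 22.1 and 22.2 CPM in DFO and 33.1, 40.0, 27.4 and 28.3 CPM in FAC libraries (log2 fold change 0.55, SE 0.13, adjusted p = 0.00711). Bysl was at 34.4, 28.7 and 28.3 CPM and 40.8, 35.7, 37.2 and 37.6 CPM (log2 fold change 0.31, SE 0.087, adjusted p = 0.0157). The other 5 lay between -0.13 (Heatr1) and 0.10 (Wdr43). Tsr1 and Wdr43 were called higher without FAC library 6, at 0.17 and 0.17 (adjusted p = 0.0125 and 0.0126), and Heatr1 turned to 0.025, uncalled. Of the 12 large subunit factors 8 rose: Ppan, Mrto4, Nop16, Nle1, Pes1, Rrs1, Gnl3 and Bop1. Ppan was at 37.4, 32.9 and 33.8 CPM in DFO and 48.0, 58.1, 43.4 and 44.4 CPM in FAC libraries (log2 fold change 0.48, SE 0.11, adjusted p = 0.00561). Mrto4 was at 28.1, 28.2 and 26.4 CPM and 33.9, 49.5, 34.0 and 35.4 CPM (log2 fold change 0.47, SE 0.13, adjusted p = 0.0173). Of the Pes1, Bop1 and Wdr12 complex the first 2 passed, at 0.25 and 0.21, and Wdr12 was at 0.10 (adjusted p = 0.17). Rrp1b (0.11) and Nop2 (0.10) were not called, but without FAC library 6 they were, at 0.22 and 0.17 (adjusted p = 0.002 and 0.00921).

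The related lists were called in the same comparisons as follows. In DFO against control 5.12% of all genes tested were called lower. Of the lists, 3 of 52 other small subunit factors (Mphosph10 at -0.47 and Nob1 at -0.44 in front), near that share, and 5 of 59 large subunit factors (Pop1 at -0.39, Mak16 at -0.36) were lower. So were 1 of 11 snoRNP and assembly factors (Znhit3 at -0.50), 2 of 19 exosome genes (Exosc2 at -0.48, Eri1 at -0.36), 1 of 82 ribosomal proteins (Rpl3 at -0.34) and 10 of 43 Myc targets outside the pathway (Srm at -0.64, Ldha at -0.60). Cell cycle genes had 19 of 30 lower. Without FAC library 6 the genes called lower were 2531 of all 12560 tested. The counts lower in the lists were then 22 small subunit factors, 26 large subunit factors, 10 exosome genes, 60 ribosomal proteins, 37 Myc targets and 29 cell cycle genes. With control library 1 or 2 left out only 1 control library remains, so calls in the lists are not given for those fits. In FAC against control 1.76% of all genes tested were called higher. Of 82 ribosomal proteins 2 were higher (Rpl27 at 0.81, Rps23 at 0.58), near that share. Without FAC library 6 there were 63, where 1254 of all 12560 genes tested were higher. Of the Myc targets Shmt2 rose (0.34) and Tfrc, the transferrin receptor, fell (-0.60).

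In FAC against DFO 26 of 52 other small subunit factors were higher and 0 lower (0 lower also unadjusted and by DESeq2), with Ngdn at 0.56 and Abt1 at 0.54 in front, and 24 of 59 large subunit factors were higher and 1 lower, with Nol12 at 0.72 and Mdn1 at -0.92. Higher too were 6 of 11 snoRNP and assembly factors (Znhit3 at 0.58, Pih1d1 at 0.50, with 1 lower), 9 of 19 exosome genes (Exosc8 at 0.84, Exosc6 at 0.80) and 5 of 19 other genes of RNA polymerase I machinery (Polr2l at 0.66, Znrd1 at 0.58). Over all genes tested 23.5% were called higher and 24.8% lower, so the polymerase count is near the share of all genes. Ribosomal proteins had 79 of 82 higher with a median of 0.72, or 80 with a median of 0.53 without FAC library 6, and Rpl22l1 (1.31) and Rpl38 (1.11) led them. Myc targets outside the pathway had 28 of 43 higher and 2 lower, with Ldha (1.04) and Srm (0.83) in front, and cell cycle genes 27 of 30 higher. Without DFO library 12 the small and the large subunit lists had 12 and 10 higher.

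Relatives and partners of Myc were called in the same cultures. Mycl, a Myc family member, rose with DFO (1.11) and fell with FAC (-1.22) against the same control libraries, and FAC against DFO was at -2.32, with group means of 7.91 CPM in control, 17.1 CPM in DFO and 3.41 CPM in FAC libraries. Mycn was at -1.12 in FAC against DFO, with means of 4.06 CPM in DFO and 1.86 CPM in FAC libraries. Pim1 fell with DFO (-0.52) and rose with FAC (0.31). Markers of cell types moved as well: eosinophil markers summed to 46248 and 47019 CPM in control, 21949 to 25227 CPM in DFO and 62445 to 73655 CPM in FAC libraries. Neutrophil markers summed to 10398 and 12376 CPM in control, 18857 to 21104 CPM in DFO and 7205 to 10144 CPM in FAC libraries, and cell cycle genes to 5126 and 5219, 3968 to 4085 and 5222 to 5968 CPM. In the same order, progenitor markers summed to 2309 and 2361, 2990 to 3063 and 1905 to 2150 CPM. Dendritic cell markers summed to 1735 and 1782, 2776 to 2922 and 1066 to 2225 CPM. The part of cell composition and of the cell cycle in the members' values was not tested.

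**Figure D5:**
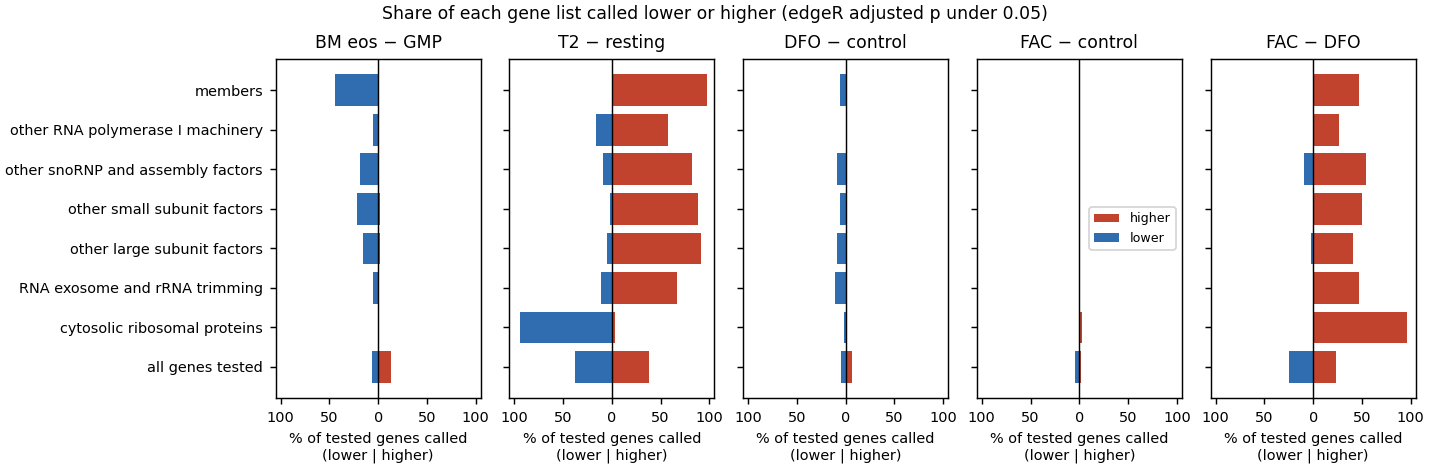
Bars give the percent of the tested genes of each list called lower (left, blue) or higher (right, red) in each comparison, with all genes tested in the last row. In T2 eosinophils the biogenesis lists extend to the right and the cytosolic ribosomal proteins to the left (77 of 82 lower), whereas in FAC against DFO the ribosomal proteins extend to the right (79 of 82 higher).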

How the data were processed

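Poly(A) RNA was captured with oligo(dT) beads and sequenced, per the labels' protocols. RSEM, StringTie 1.3.1, HISAT2, Bowtie2 2.2.8 and fastp 0.18.0 were used on the mm10 build, per the submitters' processing notes, which do not tie a tool to a column. The authors deposited expected counts (estimated counts per gene, not normalized) with FPKM and TPM for the GMP and BMDE tables, per the file headers. For resting and T2 eosinophils they deposited whole read counts with FPKM, a log2 ratio of group means and p-values with FDR, per the file headers, and the test behind those is not given in the sources used here. Lengths behind the FPKM values are not given either. TPM, the authors' log2 ratios and their p-values were not used.

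Expected counts were rounded to whole numbers. In R 4.3.3 each table was fitted once over all its groups with edgeR 4.0.16 (filterByExpr, TMM factors, quasi-likelihood F test, two-sided, Benjamini-Hochberg adjustment over all genes tested, threshold 0.05). Levels are TMM-scaled CPM, with SD taken between libraries. Total counts per library (16073573 to 28992668) set the counting precision, and Myc in resting eosinophils, with 24 to 48 counts, was the least precise of the Myc values. The fits were tested on simulated data. Alternatives were RLE and upper-quartile factors, DESeq2 1.42.0, no filter, offsets for transcript length and GC content, the replicate number as a block, only the groups compared (BMDEs) and leaving out each library. Figures were drawn with matplotlib 3.10.9 in Python 3.11.15.

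The members and all gene lists were chosen with earlier results of these data known. Members named with every library's value are Myc and, per comparison and role, the 2 called members with the largest absolute log2 fold change, or the 1 with the smallest p where none was called. From each other pathway list the 2 called genes with the largest absolute log2 fold change are named, except for ribosomal proteins in T2 eosinophils, whose single values are not reported here, and other members appear by call or range. The lists besides the members were Myc partners, other RNA polymerase I machinery, snoRNP, small and large subunit factors, exosome, Myc targets, ribosomal proteins, cell cycle and 9 lists of cell type markers.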

Additional observations from a re-analysis of the deposited data

Results flagged for a closer look

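In the 4 FAC libraries, 4 of the 36 members had a library set apart from the others by a gap above Dixon's 95% critical value, which chance exceeds in about 1 in 20 groups. Of these, 3 concern FAC library 6. Ncl was low in FAC library 6, at 589.6 CPM. Nop10 was high in FAC library 6, at 80.8 CPM. Mrto4 was high in FAC library 6, at 49.5 CPM. Rrs1 was low in FAC library 5, at 42.4 CPM. No other group had enough libraries for that rule.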

How the results depend on the processing

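In T2 against resting eosinophils 35 members were called higher under every alternative, the same 35 genes, the replicate block included. For bone marrow eosinophils against GMPs, where 16 were lower, offsets for length and GC content gave 26 and the replicate block 10, and leaving out 1 library gave 5 to 22. Over all genes 828 were lower, 1197 with the offsets, 395 with the block and 125 to 2078 with 1 library left out. The labels do not say whether the numbers pair the samples. Deviations of same-numbered libraries from their group means correlated at 0.012, 0.0050 and 0.12 (bone marrow eosinophils with GMPs) and at -0.0092, -0.022 and 0.033 (resting with T2). Eosinophil library 1 correlated best with GMP library 2 (0.14). Pairing cannot be settled by these values, because samples that share an animal or a day need not deviate together. The control, DFO and FAC groups share no numbers, so no block could be fitted there. For DFO against control, where 2 were lower, upper-quartile factors gave 4, DESeq2 8, offsets 17 and only the groups compared 31. Over all genes 646 were lower, and 639, 866, 1525 and 3025 in these alternatives. Leaving out 1 DFO or FAC library gave 0 to 31 members and 239 to 2531 of all genes. For FAC against control leaving out 1 library gave 0 to 1 lower. For FAC against DFO, where 17 were higher, it gave 9 to 28, and 1929 to 4003 higher over all genes, against 2959 with all libraries. With the offsets, Npm3 and Fbl in FAC against control turned to -0.075 and -0.086, neither called in either fit. Causes were not tested. No member was called in the opposite direction in any comparison or alternative. Upper-quartile factors moved the median of all genes in T2 against resting eosinophils to -0.13. FAC against control had 222 genes higher and 539 lower over all genes, and 594 and 920 with the offsets. Precision is limited by groups of 2 to 4 libraries and, for members at a few CPM, also by depth.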

Other observations

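Other lists, described by the same calls, held these values. Of 15 Myc partners and antagonists 2 were higher and 2 lower in bone marrow eosinophils than in GMPs, and of 30 cell cycle genes 3 were higher and 2 lower. The partners had 1 higher and 1 lower both in DFO and in FAC against control, and 4 higher and 6 lower in FAC against DFO. Cell cycle genes had 4 of 30 higher in FAC than in control, where 1.76% of all genes tested were called higher.

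Marker lists of cell types are given beside the shares of all genes tested. Those were 13% higher and 6.78% lower in bone marrow eosinophils against GMPs. In T2 against resting eosinophils they were 38.2% and 37.9%, and in FAC against DFO 23.5% and 24.8%. In bone marrow eosinophils against GMPs, 18 of 20 eosinophil, 14 of 14 neutrophil, 13 of 13 erythroid, 9 of 9 B cell and 7 of 7 mast cell and basophil markers were higher, T and NK cell markers had 3 of 6 higher, monocyte and macrophage markers had 10 of 16 higher and 4 lower, dendritic cell markers 5 of 11 higher and 2 lower and progenitor markers 4 of 18 in each direction. In T2 against resting eosinophils 10 of 20 eosinophil markers were higher and 9 lower, 3 of 13 neutrophil markers higher and 7 lower, 4 of 13 monocyte and macrophage markers higher and 5 lower, 6 of 12 progenitor markers higher and 3 lower, and 4 of 10 dendritic cell markers higher and 2 lower. Erythroid markers had 1 of 7 higher and 5 lower there, B cell markers 1 of 8 higher and 3 lower, and T and NK cell markers 1 of 8 in each direction. In FAC against DFO 16 of 20 eosinophil markers were higher and 2 lower, 1 of 14 neutrophil markers higher and 13 lower, 1 of 18 progenitor markers higher and 15 lower, and 10 of 12 dendritic cell markers lower. The other lists there were mixed, with 5 of 9 mast cell and basophil markers higher and 3 lower, 3 of 14 monocyte and macrophage markers higher and 6 lower, 2 of 9 erythroid markers in each direction, 1 of 8 B cell markers higher and 2 lower, and 1 of 7 T and NK cell markers in each direction. The part of these cell types in the values of Myc and the ribosome biogenesis genes was not tested.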
